A study of Mus musculus with 6 samples.

Results

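The 314 loci described here encode microRNAs (221 loci) and small nucleolar RNAs, or snoRNAs, of the box H/ACA kind (30 loci, symbols beginning with Snora) and the box C/D kind (63 loci, symbols beginning with Snord). They are the microRNA and snoRNA symbols with a mean of at least 1 RPKM over the 6 libraries, out of 646 such symbols with values and among 12652 genes tested in all. RPKM counts the reads on a transcript relative to its length and to all reads of the library. The loci were chosen by their own mean RPKM over both genotypes, so a locus that is high in a single library or group could enter through it. Just inside the limit were Mir5136, Mir668 and Mir665 at 1.01, 1.013 and 1.015 RPKM, and just outside were Mir1963, Mir1941 and Mir15b at 0.997, 0.992 and 0.992 RPKM.

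The libraries were made from pancreatic islets, of mixed cell type by their labels, of adult male mice aged 3 months, of which 3 were Ucn3 null and 3 were wild-type littermates. Ucn3 encodes urocortin 3, a peptide secreted alongside insulin by mature beta cells. Each library came from 1 animal, and the library numbers used below only name the animals. The extraction protocol mentions a cell sort although the tissue is given as islets, and the TruSeq RNA kit used, as sold, selects polyadenylated RNA and does not mark strand. The values are therefore reads over the locus, which may come from the primary or host transcript, and are not levels of the mature small RNA.

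A microRNA is cut from a hairpin in a longer transcript, first by Drosha with Dgcr8 in the nucleus and then by Dicer1 in the cytoplasm. Its seed, the bases near its 5′ end, pairs with target messenger RNAs inside an Argonaute protein. Box C/D snoRNAs guide methylation of ribosomal RNA by fibrillarin (Fbl), and box H/ACA snoRNAs guide pseudouridylation by dyskerin (Dkc1). Most mammalian snoRNAs lie in introns of host genes, many of which encode ribosomal proteins or translation factors, and are trimmed out of the spliced intron.

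Mature sequences from RefSeq (build GRCm38.p6) were found for 207 of the 221 microRNA loci, and they hold 307 distinct seeds, of which 26 are shared by more than 1 locus. The first set shows the loci whose reads switched between high and near 0 from library to library, with the seed, bases 2 to 8, in capitals.
miR-675-5p: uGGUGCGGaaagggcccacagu
miR-153-3p: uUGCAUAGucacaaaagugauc
miR-340-5p: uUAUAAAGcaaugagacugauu
miR-148b-3p: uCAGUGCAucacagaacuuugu
miR-1930-5p: aCCUCCAUaguaccugcagcgu
The second set shows families with 1 seed that were read very differently from locus to locus. Mir7-1 and Mir7-2 encode the same miR-7a, whose seed GGAAGAC is also that of Mir7b. The seed GUCAGGC of the miR-344 family is shared by 6 of the loci.
miR-7a-5p: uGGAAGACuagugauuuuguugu
miR-7b-5p: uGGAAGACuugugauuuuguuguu
miR-344-5p: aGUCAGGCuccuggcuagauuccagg
miR-344b-5p: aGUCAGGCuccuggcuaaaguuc
miR-344c-5p: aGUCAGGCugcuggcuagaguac
miR-344g-5p: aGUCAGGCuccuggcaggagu
The third set shows the snoRNAs with the smallest p among those lower in null islets without overlap, from GENCODE M21 transcripts (GRCm38). In box C/D snoRNAs the capitals mark TGATG, the core of the C box, in the first 25 bases and CTGA, the D box, in the last 20 bases. In box H/ACA snoRNAs they mark ACA in the last 12 bases.
Snora20: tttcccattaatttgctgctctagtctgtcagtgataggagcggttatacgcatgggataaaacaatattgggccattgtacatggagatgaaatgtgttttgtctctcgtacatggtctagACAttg
Snora3: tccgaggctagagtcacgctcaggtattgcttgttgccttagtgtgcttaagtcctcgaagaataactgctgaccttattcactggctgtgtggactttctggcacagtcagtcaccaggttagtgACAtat
Snora16a: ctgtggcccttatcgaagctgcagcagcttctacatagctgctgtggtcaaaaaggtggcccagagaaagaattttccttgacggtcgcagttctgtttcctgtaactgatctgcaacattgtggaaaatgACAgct
Snord95: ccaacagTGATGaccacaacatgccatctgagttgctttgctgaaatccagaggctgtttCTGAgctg
Snord87: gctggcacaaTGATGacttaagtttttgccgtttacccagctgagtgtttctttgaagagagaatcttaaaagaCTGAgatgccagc
The motifs were searched on the snoRNA's own strand only. Of 61 box C/D loci with a sequence, 51 or 83.6% held both the C and the D box letters, against 0 of 29 box H/ACA loci. The ACA letters near the 3′ end were in 27 of 29 box H/ACA loci (93.1%) and in 7 of 61 box C/D loci (11.5%). The symbols and the sequence classes therefore matched for most loci.
The fourth set shows a microRNA and a snoRNA that are the same stretch of genome.
miR-664-5p: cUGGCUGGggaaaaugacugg
miR-664-3p: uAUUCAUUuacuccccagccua
Snora36b: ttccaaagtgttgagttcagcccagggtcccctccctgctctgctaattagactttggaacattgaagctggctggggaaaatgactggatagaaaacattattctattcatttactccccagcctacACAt
Both arms of miR-664 lie inside Snora36b, at bases 69 to 89 and 106 to 127 of its 132 bases, with T in place of U.

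Whole-read steps in the low values put the depth at 42320000 to 51560000 reads per library, at which 1 read on a locus of 80 bases is worth 0.242 to 0.295 RPKM. The targeted gene matched the labels, with Ucn3 at 136, 157 and 155 RPKM in wild-type libraries 1 to 3 and 1.61, 1.63 and 1.80 RPKM in null libraries 1 to 3. Ucn3 was 1 of the 2 genes, 0.0158% of 12652, that passed the threshold, a limma p of 0.05 after Benjamini-Hochberg adjustment over all genes. The mean log2 value of 33 acinar cell markers was 6.48, 3.54 and 5.38 in the wild-type and 8.17, 7.55 and 6.32 in null libraries, and 31 of these markers were higher in null at an unadjusted limma p under 0.05. The delta cell markers Sst, Hhex and Rbp4 were all lower in null by the same measure. So were 4 of 5 tested duct markers and 2 of 4 tested macrophage markers, with 0 higher in either list. Less RNA per cell and fewer cells of a type cannot be told apart in bulk islets.

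The loci were short and shallow. Over 313 loci of known length the median was 15 reads per library, the lowest mean was 3.01 reads and the highest 4762 reads. Under 10 reads on average stood behind 116 loci, at least 100 reads behind 40, and 34 loci were listed at 0 in at least 1 library. Of the snoRNAs, 29 of 30 box H/ACA and 58 of 63 box C/D loci lie in introns of a gene on the same strand. The microRNA loci were more mixed, with 117 in introns, 59 overlapping exons, 24 between genes, 20 inside a gene on the other strand (13 in introns and 7 in exons) and 1 without a position. The median level was 6 RPKM for the 64 loci that overlap exons, 4.03 RPKM for the 204 in introns and 1.5 RPKM for the 25 between genes.

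The highest microRNA locus, Mir3471-1, lies between genes and stood at 898, 814 and 783 RPKM in the wild-type and 739.5, 666 and 726 RPKM in null libraries. Mir682, inside the pseudogene Gm4149, stood at 378, 426 and 365 RPKM in the wild-type and 334, 327 and 362 RPKM in null libraries. In both loci every null library lay below every wild-type library, and neither difference passed (limma adjusted p = 0.59 and 0.61). Mir483, in an intron of the growth factor gene Igf2, held 261, 271 and 283 RPKM in the wild-type and 206.5, 298 and 280.3 RPKM in null libraries, so the groups overlapped. Igf2 itself held 4.74 to 6.42 RPKM, far below the locus in its intron. Mir3064, which overlaps an exon of the RNA helicase gene Ddx5, held 173 to 242 RPKM in the wild-type and 168 to 211 RPKM in null libraries, and Ddx5 held 211 to 265.5 RPKM over all libraries. Mir1906-1, in an exon of the imprinted noncoding RNA Meg3, and Mir1906-2 on chromosome X had identical values in all 6 libraries, from 127 to 236.5 RPKM, and share 1 mature sequence. Reads of these copies cannot be assigned to either locus.

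**Figure D1:**
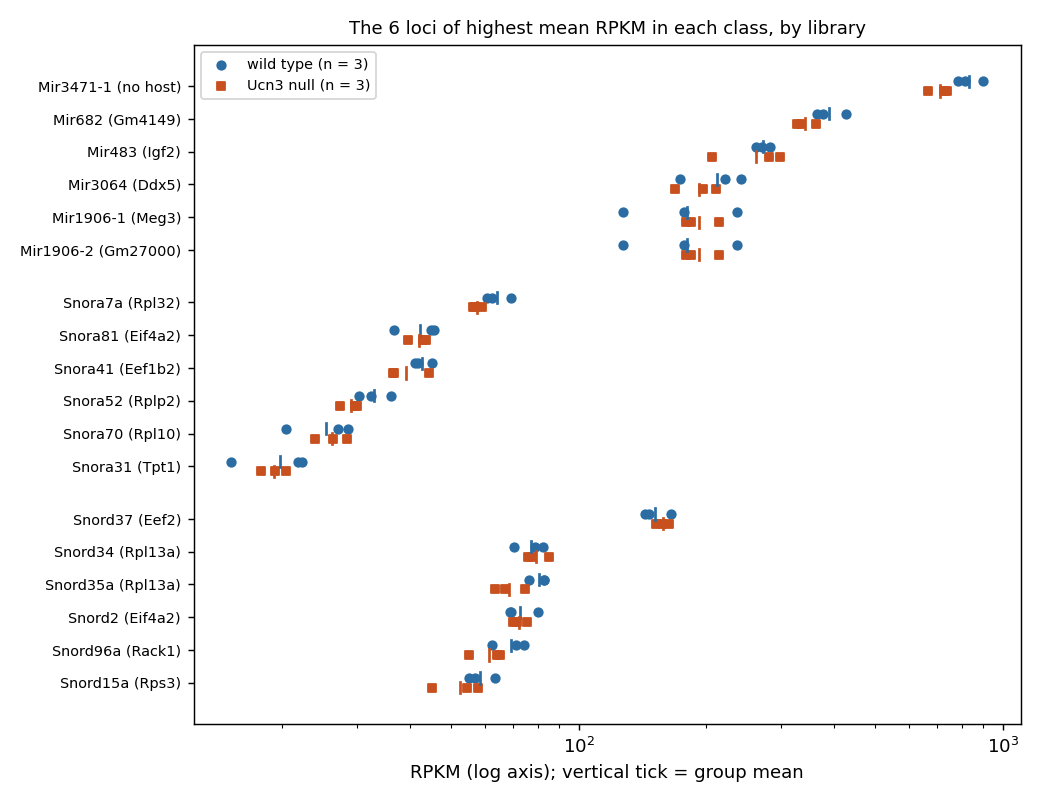
RPKM (log axis) of the 6 microRNA, 6 box H/ACA and 6 box C/D loci of highest mean level, 1 point per library, with circles for wild type (n = 3), squares for Ucn3 null (n = 3), a tick at each group mean and the host gene in brackets (Rack1 is Gnb2l1 in the table). Snord37 held 143 to 165 RPKM in all libraries with overlapping groups, and Mir3471-1, at the top, held 783 to 898 RPKM in wild-type islets and 666 to 739.5 RPKM in null islets.

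Some of the best-known islet microRNA loci were barely read. Mir375, the locus of a microRNA abundant in beta cells, was listed at 0, 0.33 and 0.98 RPKM in the wild-type and 0.30, 0.33 and 0.34 RPKM in null libraries, which is 0 to 3 reads, and so it is not among the loci. Mir204 (0 to 0.62 RPKM) and Mir21 (0.21 to 1.82 RPKM) also averaged under 1 RPKM. Of 54 islet or endocrine microRNA loci looked up and present in the table, 22 reached the limit. Mir7-1, in an intron of Hnrnpk, held 16.1, 15.3 and 13.4 RPKM in the wild-type and 11.5, 15.9 and 15.2 RPKM in null libraries. Mir7-2 and Mir7b, which share its seed, lie between genes and held 0.64 to 2.45 RPKM and 0.35 to 2.07 RPKM. Hnrnpk, which encodes an RNA-binding protein, held 67.2 to 80.35 RPKM, and none of these values is a level of mature miR-7. Mir103-1, in an intron of the pantothenate kinase gene Pank3, held 4.39, 4.37 and 5.79 RPKM in the wild-type and 3.61, 3.16 and 4.28 RPKM in null libraries without overlap, and did not pass (limma adjusted p = 0.50). Its partner Mir103-2 in Pank2 held 1.22 to 2.65 RPKM in the wild-type and 1.95 to 4.06 RPKM in null libraries, with overlap. Of the 22 loci, 0 passed the threshold, and at an unadjusted limma p under 0.05 there were 2 higher and 1 lower, where 1.46% and 7.9% of all genes were. The higher loci were Mir153, listed at 0 in wild-type libraries 1 and 3, and Mir7-2, on 3 to 11 reads with overlapping groups. The lower locus was Mir103-1. The median log2 difference of the 22 loci was -0.017.

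Among the snoRNA loci, the highest lay in genes of the translation machinery. Snord37, in the elongation factor gene Eef2, held 165, 143 and 146 RPKM in the wild-type and 152.5, 157 and 164 RPKM in null libraries. Snord34 and Snord35a, lie in introns of 1 ribosomal protein gene, Rpl13a. Snord34 held 79.0, 82.3 and 70.4 RPKM in the wild-type and 75.7, 77.7 and 84.9 RPKM in null libraries, with overlap. Snord35a held 82.75, 82.8 and 76.5 RPKM in the wild-type and 63.4, 67.0 and 74.6 RPKM in null libraries, with no overlap and a limma adjusted p of 0.49. Rpl13a held 134, 137 and 127 RPKM in the wild-type and 108, 110.1 and 121 RPKM in null libraries. The highest box H/ACA locus was Snora7a in Rpl32, at 60.7, 69.4 and 62.5 RPKM in the wild-type and 56.3, 57.05 and 59.1 RPKM in null libraries, without overlap and without passing (limma adjusted p = 0.58). Snora81 and Snord2 lie in the same translation factor gene, Eif4a2, and both overlapped between genotypes, at 36.6 to 45.55 RPKM and 68.9 to 80.1 RPKM.

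The main comparison asked which loci differ between Ucn3 null and wild-type islets. Of the 314 loci, 0 passed the threshold in limma, and the smallest adjusted p was 0.37. At an unadjusted limma p under 0.05 there were 41 loci or 13.1%, against 9.36% of all 12652 genes. Of these, 11 were higher in null (3.5%, against 1.46% of all genes) and 30 lower (9.55%, against 7.9%). Limma-voom on estimated reads also called 0, and it put 15 of 313 loci at an unadjusted p under 0.05, or 4.79% against 9.2% of all genes, so the loci lay above the background in the first fit and below it in this one. With RPKM rescaled by median ratios, 15 loci were higher (4.78%, against 4.47% of all genes) and 23 lower (7.32%, against 4.61%). With the acinar marker mean as a covariate, 17 were higher (5.41%, against 0.996%) and 19 lower (6.05%, against 2.57%). The groups did not overlap for 37 loci or 11.8%, of which 7 were higher and 30 lower. Over all genes the shares were 15.2% in all, 1.9% higher and 13.2% lower, so the loci lay near or under the background by this count. The median log2 difference, taken as null minus wild type of log2(RPKM + 1), was -0.025 for the loci and -0.034 for all genes, and 168 loci lay below 0 and 146 above.

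**Figure D2:**
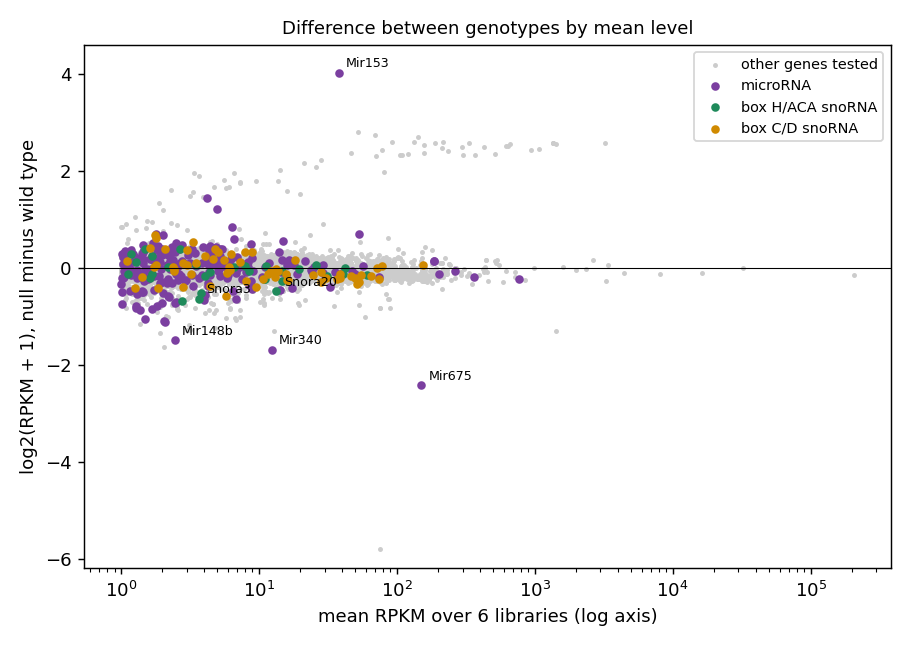
Log2 difference between genotypes, taken as null minus wild type of log2(RPKM + 1), against mean RPKM over 6 libraries (log axis), 1 point per gene, with the 314 loci in colour and the other tested genes in grey. Most loci lie close to 0, and the named points Mir153 at 4.02 and Mir675 at -2.42 are loci near 0 in some libraries.

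By class, the microRNA loci had a median log2 difference of -0.016, with 7 higher (3.17%) and 16 lower (7.24%) of 221 at an unadjusted limma p under 0.05, where 1.46% and 7.9% of all genes were. The box H/ACA loci had a median of -0.076 (-0.037 with median-ratio scaling), with 1 higher (3.33%) and 5 lower (16.7%) of 30. The box C/D loci had a median of -0.068, with 3 higher (4.76%) and 9 lower (14.3%) of 63. Summed over the class, box H/ACA loci held 379, 372 and 365 RPKM in the wild-type and 344, 330 and 348 RPKM in null libraries, with no overlap. After median-ratio scaling these sums were 370.4, 374 and 353 against 365, 339.6 and 335, and overlapped. The unscaled sums for box C/D loci, 1186 to 1308 RPKM in wild-type islets and 1104 to 1257 RPKM in null, and for microRNA loci, 3611 to 3791 RPKM and 3232 to 3787 RPKM, overlapped.

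Snora20, Snora3, Snora16a, Snord87 and Snord95 were picked for the smallest p among loci lower in null without overlap. Their lack of overlap is therefore the condition for naming them and not a further result. Their hosts and neighbours were not picked this way, so smaller differences there do not show a change particular to the loci. The locus with the smallest p was Snora20, in an intron of Tcp1, which encodes a subunit of the cytosolic chaperonin. It held 15.2, 15.8 and 16.4 RPKM in the wild-type and 12.1, 11.0 and 9.98 RPKM in null libraries, and every null library was lower. The log2 difference was -0.48 (SE 0.08, limma adjusted p = 0.37), from 28 to 48 reads per library. Tcp1 held 24.9 to 26.7 RPKM in the wild-type and 21.6 to 23.1 RPKM in null libraries, a log2 difference of -0.19 (SE 0.07). Snora3, in the ribosomal protein gene Rpl27a, held 5.30, 4.34 and 4.48 RPKM in the wild-type and 2.74, 3.13 and 2.16 RPKM in null libraries. Its log2 difference was -0.64 (SE 0.12, limma adjusted p = 0.44), from 12 to 27 reads, while Rpl27a differed by -0.22 (SE 0.08). Snora16a and Snord87 lie in Snhg12 and Snhg6, transcripts known mainly as snoRNA hosts. Snora16a held 5.01, 4.28 and 4.71 RPKM in the wild-type and 2.70, 3.68 and 2.53 RPKM in null libraries, and Snord87 held 5.76, 7.36 and 8.43 RPKM and 4.99, 4.25 and 4.1 RPKM. Neither overlapped between genotypes (log2 differences -0.52 and -0.58, limma adjusted p = 0.49 for each), and they rest on 16 to 31 and 14 to 30 reads. Their hosts did overlap, with Snhg12 at 10.8 to 12.9 RPKM in the wild-type and 10.1 to 12.7 RPKM in null libraries and Snhg6 at 7.84 to 10.3 and 7.32 to 10.3 RPKM. Snora61, Snora44 and Snord99 also lie in Snhg12 and differed less, by -0.07, -0.17 and 0.007. Snord95, in the gene of the ribosome-bound scaffold Rack1 (Gnb2l1 in the table), was the deepest of these loci with 145 to 184 reads. It held 58.9, 56.4 and 56.3 RPKM in the wild-type and 41.5, 46.6 and 47.2 RPKM in null libraries, a log2 difference of -0.34 (SE 0.08, limma adjusted p = 0.49). Gnb2l1 held 123 to 138 RPKM and 112 to 129.6 RPKM, with overlap.

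In the other direction the loci were picked in the same way, for the smallest p among those without overlap. The first was Snord85, a box C/D snoRNA. It held 1.09, 1.29 and 0.96 RPKM in the wild-type and 2.40, 1.62 and 3.34 RPKM in null libraries, a log2 difference of 0.68 (SE 0.18, limma adjusted p = 0.49). These values rest on 3, 4 and 3 reads and on 8, 5 and 10 reads. Mir1966, overlapping an exon of Fam65a, held 3.26 to 3.93 RPKM in the wild-type and 4.40 to 5.55 RPKM in null libraries, a log2 difference of 0.35. Mir467f, on the other strand of an intron of Fxr2, held 2.43 to 2.94 and 3.22 to 4.31 RPKM, a log2 difference of 0.38, while Fxr2 overlapped between genotypes. Without strand, reads of Mir467f and of Fxr2 cannot be told apart. Mir664 and Snora36b, the overlapping pair whose sequences are printed above, carried the same 12, 9 and 13 reads in the wild-type and 15, 20 and 17 reads in null libraries. Their log2 differences of 0.44 and 0.39 are thus 1 measurement, and none of these 4 passed (limma adjusted p = 0.49 for each). The host Rab3gap2 held 11.3 to 12.5 RPKM in the wild-type and 11.9 to 13.5 RPKM in null libraries.

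Snora52, in the ribosomal protein gene Rplp2, was left out of the counts below because its host symbol did not match the search. Its log2 difference was -0.17 without overlap, and that of Rplp2 was -0.12. Of the other snoRNA loci, 29 lie in ribosomal protein genes. Their median log2 difference was -0.158, 20 of 29 were below 0 (61.7% of all genes were), and at an unadjusted limma p under 0.05 there were 1 higher (3.45%, against 1.46% of all genes) and 8 lower (27.6%, against 7.9%). These loci lie in 21 hosts, 5 of which hold several of them, so they are not independent. All 21 hosts were below 0, with a median of -0.184, and 7 of them were lower and 0 higher by the same measure. A wider list of 57 snoRNA host transcripts had a median of -0.148, with 51 below 0 (89.5%), 13 lower (22.8%) and 0 higher at an unadjusted limma p under 0.05, and 0 past the threshold. Cct6a, another chaperonin subunit, averaged 26.9 ± 0.46 RPKM over the wild-type and 23.5 ± 0.52 RPKM over the null libraries (mean ± SD, n = 3 per genotype), a log2 difference of -0.18 (limma adjusted p = 0.49). The part of the acinar, delta, duct and macrophage marker differences in these values was not tested.

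The proteins that make or carry these small RNAs were counted in the same way. Of 30 tested genes of microRNA processing and silencing, 0 passed the threshold, 1 was higher (3.33%, against 1.46% of all genes) and 0 lower (against 7.9%) at an unadjusted limma p under 0.05, and the median log2 difference was 0.022. The single higher gene was Adarb1, which encodes an RNA-editing deaminase, at 5.47, 5.13 and 5.85 RPKM in the wild-type and 6.51, 6.58 and 6.53 RPKM in null libraries (log2 difference 0.22, SE 0.07, limma adjusted p = 0.49). The processing enzymes stood at 5.95 ± 0.43 and 5.85 ± 0.19 RPKM for Drosha, 4.75 ± 0.35 and 4.47 ± 0.19 RPKM for Dgcr8 and 7.81 ± 0.78 and 8.49 ± 0.40 RPKM for Dicer1 (wild type first, then null, mean ± SD, n = 3 per genotype). The exporter Xpo5 stood at 7.08 ± 0.38 and 7.30 ± 0.45 RPKM, and Eif2c2, which encodes Argonaute 2, at 3.84 ± 0.83 and 4.40 ± 0.12 RPKM. All 5 overlapped between genotypes.
Of 25 snoRNP proteins and assembly factors, 0 passed, and at an unadjusted limma p under 0.05 there were 0 higher and 5 lower (20%, against 7.9% of all genes). Below 0 lay 21 of them (84%, against 61.7% of all genes), and the median log2 difference was -0.128. Nop56, Nop58, Dkc1 and Ncl are also in the list of snoRNA host transcripts, and Nop56 and Nop58 are among the lower genes of each. The lists are therefore not independent. Nop10, a core protein of box H/ACA particles, held 19.5, 24.1 and 24.2 RPKM in the wild-type and 16.4, 18.01 and 18.2 RPKM in null libraries (log2 difference -0.34, SE 0.10, limma adjusted p = 0.49). Nop58, a core protein of box C/D particles, held 13.6 to 14.1 RPKM in the wild-type and 11.9 to 12.4 RPKM in null libraries, and Shq1, a dyskerin assembly factor, 9.11 to 10.1 and 8.23 to 8.49 RPKM. Fbl stood at 11.8 ± 0.43 and 10.5 ± 1.24 RPKM, Nop56 at 13.8 ± 0.67 and 12.1 ± 0.89 RPKM, Dkc1 at 3.84 ± 0.17 and 3.36 ± 0.21 RPKM and Nhp2 at 3.63 ± 0.28 and 3.28 ± 0.24 RPKM (wild type first, then null, mean ± SD, n = 3 per genotype).

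A few microRNA loci were high in some libraries and near 0 in others while their host transcripts were read in every library. How reads over such short loci were counted is not stated, so a value listed at 0, and a difference that rests on it, cannot be read as loss of the transcript, and the part of the counting was not tested. A rule set after the values were seen asked for at least 50 reads in 1 library and at most 2 in another. It was met by 4 of 313 loci (1.28%) and by 7 of 12433 genes of known length (0.0563%). The 7 genes include the 4 loci, and the others were Hamp2, Reg3b and Reg3d. Of the loci, 76 reached 50 reads in a library. Mir675, in an exon of the imprinted noncoding RNA H19, held 614, 717 and 714 reads in the wild-type and 0, 760 and 731 reads in null libraries. H19 itself held 5.53, 5.68 and 5.68 RPKM in the wild-type and 4.41, 6.10 and 6.02 RPKM in null libraries. Its lowest value was in null library 1, where Mir675 was listed at 0. In the libraries where it was read, Mir675 held 173 to 190 RPKM, far above H19, although it lies in an H19 exon. The H19 level therefore does not show what the reads over Mir675 should be. The log2 difference of Mir675 was -2.42 (SE 1.84, limma adjusted p = 0.72), and without null library 1 it was 0.10.
Mir153, in an intron of Ptprn2, which encodes a protein of the insulin granule membrane, held 0, 163 and 0 reads in the wild-type and 175, 209 and 210 reads in null libraries. In RPKM these were 0, 49.5 and 0 against 49.3, 63.6 and 66.0, so wild-type library 2 matched null library 1. Ptprn2 held 125.5, 122 and 129 RPKM in the wild-type and 132, 142.5 and 144 RPKM in null libraries. The log2 difference of Mir153 was 4.02 (SE 1.38, limma adjusted p = 0.49), and without wild-type library 2 it was 5.91 (SE 0.13, limma adjusted p = 1.7e-05). That fit leaves out the only wild-type library with reads of Mir153 and keeps only wild-type values of 0. Its small SE and its pass follow from that choice and are no support for a difference.
Mir340, in an intron of the ubiquitin ligase gene Rnf130, held 1, 133 and 114 reads in the wild-type and 108, 1 and 0 reads in null libraries, so both states occurred in both genotypes. Rnf130 held 83.4 to 96.0 RPKM in all libraries. Mir148b, in an intron of the coatomer gene Copz1, held 59, 1 and 1 reads in wild-type libraries and was listed at 0 in all null libraries, while Copz1 held 31.2 to 42.5 RPKM. Mir1930, in an intron of the ubiquitin-conjugating enzyme gene Ube2g2, lay outside the rule with 0, 0 and 41 reads in the wild-type and 19, 22 and 21 reads in null libraries. Its log2 difference was 1.44 (SE 0.85, limma adjusted p = 0.64), and without wild-type library 3 it was 2.60 (SE 0.12, limma adjusted p = 0.00042). Here too the library left out was the only wild-type library with reads, so the pass is no support for a difference. Mir340 and Mir1930 were named after their values were seen.

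**Figure D3:**
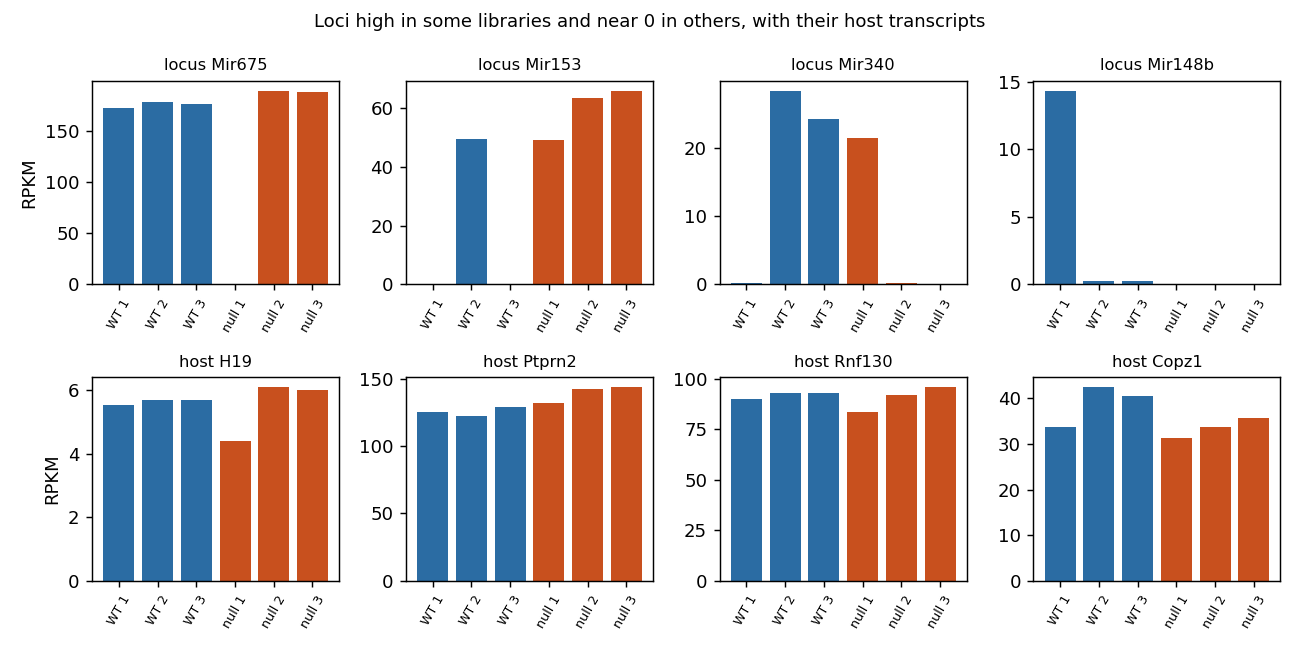
RPKM in each library of Mir675, Mir153, Mir340 and Mir148b (upper row) and of their host transcripts H19, Ptprn2, Rnf130 and Copz1 (lower row), with 1 bar per library, blue for wild type (WT) and orange for Ucn3 null. A bar at 0 is a value listed at 0, with the counting not stated; the loci switch between well-read and about 0 RPKM, while H19 stays between 4.41 and 6.10 RPKM and Rnf130 between 83.4 and 96.0 RPKM.

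The miR-344 family showed the same kind of split among loci with 1 shared seed. Mir344 held 5, 2 and 43 reads in the wild-type and 2, 4 and 1 reads in null libraries, and Mir344c held 1, 1 and 43 reads and 3, 0 and 5 reads, so both were high in wild-type library 3 alone. Mir344b held 1, 0 and 30 reads in the wild-type and 34, 2 and 25 reads in null libraries, a different set of libraries. Mir344g, by contrast, held 93, 69 and 75 reads and 89, 64 and 88 reads, and Mir344-2 held 57, 31 and 45 reads and 91, 54 and 64 reads. Mir344 and Mir344-2 encode the same mature sequence, yet only Mir344-2 was read in every library at over 30 reads. Mir344 differed by -1.12 on the log2 scale (SE 0.65, limma adjusted p = 0.63), and without wild-type library 3 by -0.28. Mir344c differed by -0.74 (SE 0.80, limma adjusted p = 0.82), and without wild-type library 3 by 0.30. Mir344b, Mir344g and Mir344-2 were named after their values were seen.

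The imprinted region on chromosome 12 that runs from Meg3 to Mirg held 33 of the loci, and their highest values fell in libraries of both genotypes. At an unadjusted limma p under 0.05 there was 1 locus (3.03%, against 9.36% of all genes), 0 loci separated the genotypes without overlap (against 15.2%), and 17 were below 0 (51.5%, against 61.7%). The highest value fell in null library 3 for 15 loci, in wild-type library 1 for 12, in wild-type library 3 for 5 and in null library 2 for 1. The summed reads were 1153, 714 and 1462 in the wild-type and 1248, 1102 and 1492 in null libraries. Without Mir1906-1 and Mir770, which overlap exons of Meg3, they were 283, 153 and 340 in the wild-type and 170, 184 and 407 in null libraries. Mir770 held 68.3, 16.7 and 46.8 RPKM in the wild-type and 66.3, 52.3 and 68.05 RPKM in null libraries, and Meg3 itself held 513, 385 and 633 RPKM and 551, 488 and 562 RPKM. Rian, another noncoding RNA of the region, held 104, 103 and 139.7 RPKM in the wild-type and 112, 93.9 and 106 RPKM in null libraries. Mirg, the microRNA-containing gene at the end of the region, held 9.49, 9.92 and 12.98 RPKM and 10.8, 9.29 and 10.5 RPKM.
Neighbouring loci moved as blocks. Mir493, Mir540, Mir665, Mir3070a, Mir3070b and Mir431 held 11 or 12 reads each in wild-type library 3, 14 or 15 in null library 3 and 0 to 2 in the other 4 libraries. Mir136, on the other strand of an exon of Rtl1, held 5, 2 and 3 reads in the wild-type and 2, 4 and 16 reads in null libraries, and without null library 3 its log2 difference of 0.46 (SE 0.48) became -0.13. Mir379 and Mir380 had the same reads in each library, 7, 7 and 2 in the wild-type and 0, 0 and 7 in null, and Mir411 and Mir299 beside them had nearly the same. Equal reads in neighbours mean that the loci are not independent measurements. These blocks were singled out after their values were seen. The mean log2 value of 5 alpha cell markers was 5.91, 5.73 and 5.83 in the wild-type and 5.57, 5.83 and 6.12 in null libraries, also highest in null library 3. In wild-type library 3, where the Mir493 to Mir431 block was high, this mean was not above wild-type library 1 or null library 2. The part of alpha cell markers in the reads of the region was not tested.

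**Figure D4:**
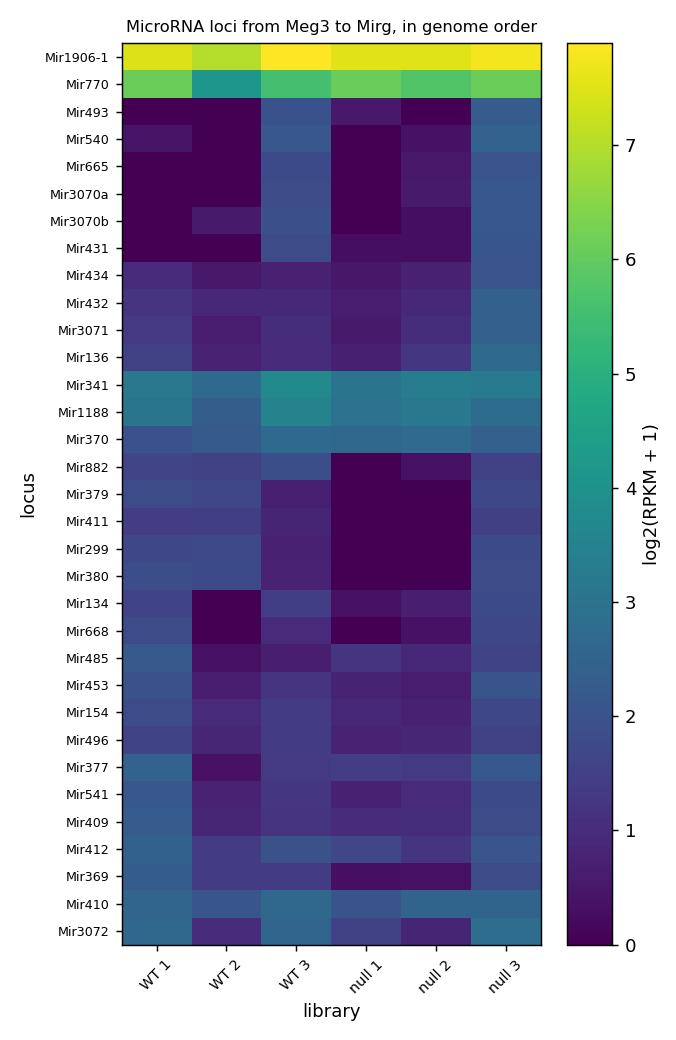
Log2(RPKM + 1) of the 33 microRNA loci from Meg3 to Mirg on chromosome 12 in each library, with loci in genome order down the rows and wild type (WT) and Ucn3 null libraries across the columns. Blocks of neighbouring loci are high in the same libraries, such as Mir493 to Mir431 in wild-type library 3 and null library 3, and no block separates the genotypes.

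Mir296 and Mir298, neighbours on chromosome 2, held 2.69, 3.44 and 3.68 RPKM and 2.59, 3.31 and 3.80 RPKM in the wild-type and 0.49, 2.39 and 2.47 RPKM and 0.47, 2.30 and 2.38 RPKM in null libraries. Neither overlapped between genotypes and neither passed (limma adjusted p = 0.53 for each), and both rest on 2 to 15 reads. Mir296 held 9, 13 and 14 reads in the wild-type and 2, 9 and 9 in null libraries. Mir298 held 9, 13 and 15 and 2, 9 and 9 reads, so the pair are not independent measurements. Snord64 held 2 to 9 reads in every library, with overlap.

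Levels of loci were set against those of the genes that contain them for 264 loci in 205 hosts, as a description, since a locus and its host share a library and, in exons, also reads. Across loci, Spearman's rho between the mean RPKM of locus and host was 0.63, and between their log2 differences it was 0.42 (256 loci with a tested host), with the same sign for 176 of them. For the 193 intron loci the median ratio of locus to host was 0.344, and 10 loci exceeded their host. For the 53 exon loci the median ratio was 0.698, and 19 exceeded their host. For the 85 snoRNAs in introns, the rho was 0.68 for levels and 0.47 for differences, and the median log2 difference was -0.07 for the loci and -0.133 for their hosts. For the 108 microRNA loci in introns the rho was 0.53 for levels, and 0.33 for differences over 106 loci.

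**Figure D5:**
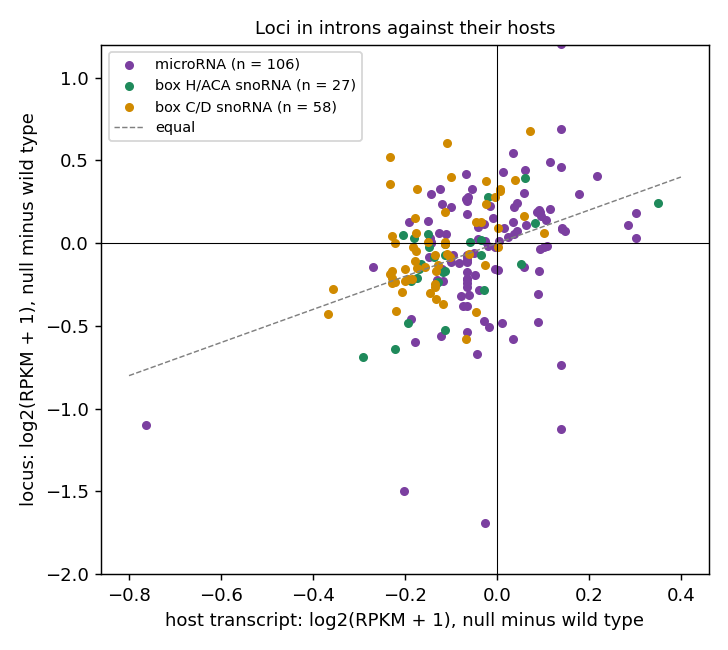
Log2 difference (null minus wild type of log2(RPKM + 1)) of 191 intron loci against that of their host transcripts, 1 point per locus, coloured by class, with a dashed line of equality. The hosts spread less than the loci, most within 0.4 of 0, and 3 loci (Mir153, Mir344b and Mir1930) lie above the plotted range.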

How the data were processed

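RNA of 6 islet samples, 3 per genotype, was sequenced. The authors deposited RPKM per RefSeq transcript, per the file headers. STAR, bedtools and DESeq and the build mm9 are named without roles or versions, per the submitters' processing notes. How shared or antisense reads were counted is not given in these sources. Of 28129 rows, 118 lacked 6 values. For each symbol the transcript of highest mean RPKM was kept, and genes averaging at least 1 RPKM were tested. Log2(RPKM + 1) values were fitted with limma 3.58.1 in R 4.3.3 (eBayes with a mean trend, genotype as the only term), with Benjamini-Hochberg adjustment over all 12652 genes and a threshold of 0.05.

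Low RPKM values times locus length fall on whole-read steps, which gave the depth. Of 141 to 156 low values per library, 97.3% to 99.3% were whole within 0.1 read, so reads are estimates and cover counting error only. The reference (GRCm38) differs from the build of the table, so it gave names, lengths, sequences, gene context and order, and no coordinates. The loci and lists were chosen with earlier results of these data known. Loci were named by mean level (6 per class), membership of islet or imprinted lists, smallest p without overlap (5 per direction) or largest ratio (3 per direction), and their hosts with them. The host of 1 named locus is not reported here. Alternatives were another pseudocount, low-value filters, median-ratio scaling, limma-voom on estimated reads, the acinar mean as a covariate, no mean trend, and leaving out each library. The fit was tested on simulated data. Figures used matplotlib 3.10.9 in Python 3.11.15.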

Additional observations from a re-analysis of the deposited data

How the results depend on the processing

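The count of all genes past the threshold, 2, was 4 without a filter on low values and 1 with genes of at least 5 RPKM, with limma-voom on estimated reads or with the acinar covariate, and it ranged from 1 to 5 as each library was left out. The count of loci past the threshold stayed at 0 except without wild-type library 2 (Mir153) or wild-type library 3 (Mir1930). It ranged from 0 to 1 when a library was left out. Each of these libraries was the only wild-type library with reads of that locus, so neither pass is support for a difference. Loci at an unadjusted p under 0.05, 41, numbered 18 of 129 with genes of at least 5 RPKM (14%, against 11% of all genes) and 15 with limma-voom (4.79%, against 9.2%). With a library left out they ranged from 32 without null library 2 (10.2%, against 3.45%) to 57 without wild-type library 3 (18.2%, against 7.63%). Loci without overlap, 37, numbered 19 with genes of at least 5 RPKM (14.7%, against 17.3%). With a library left out, where fewer values must separate, they ranged from 54 without null library 2 (17.2%, against 18.6%) to 77 without wild-type library 3 (24.5%, against 23.6%). The median of box H/ACA loci, -0.076, was -0.037 with median-ratio scaling, -0.112 with limma-voom and -0.118 to -0.01 with a library left out, the last without null library 1. The median of box C/D loci was -0.141 with genes of at least 5 RPKM. Median-ratio scaling moved the median of all genes from -0.034 to 0.005.

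Of 442 log2 differences of 35 named genes under 13 alternatives, 429 kept their direction and their side of the threshold, 2 passed it (Mir153 at 5.91 without wild-type library 2, Mir1930 at 2.60 without wild-type library 3) and 11 changed sign. Those were Mir136 at -0.13 without null library 3, Mir344c at 0.30 without wild-type library 3, Mir675 at 0.10 without null library 1, and hosts or processing genes near 0. The 35 genes include loci named because their groups did not overlap. The sign of such loci cannot change with another pseudocount or a library left out, so part of the 429 was fixed in advance. With a library left out, Mir136 ranged from -0.13 to 0.88, Mir344c from -1.26 to 0.30, Mir675 from -3.68 to 0.10, Fxr2 from -0.1 to 0.02 and Snhg6 from -0.18 to 0.04. Fxr2 was at 0.00 with median-ratio scaling, 0.05 with the acinar covariate, 0.02 without wild-type library 3 and 0.01 without null library 1. With the acinar covariate Ran was at 0.02 and Snhg12 at 0.08, and Snhg6 was at 0.01 without wild-type library 3 and 0.04 without null library 1. The cause of these shifts was not tested. No paired analysis was possible because the labels give no numbers shared between the groups. At a median of 15 reads, small differences of most loci were not detectable at this depth.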
